A study of Rattus norvegicus with 210 samples.

Results

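The preoptic area (POA) of female rats was compared at postnatal day 22 (PND22) between animals exposed perinatally to diethylstilbestrol (DES) and animals given vehicle. The comparison took in 20 of the 210 libraries of the series, which are the 15 libraries of the groups D3, D6 and D12 (3, 6 and 12 µg/kg bw/day of DES, 5 libraries each) and the 5 libraries of the control group. They were picked out by their labels, and the comparison was chosen with earlier results of these data known. All were bulk RNA-seq libraries of Sprague-Dawley females whose mothers had been gavaged during gestation and lactation, with DES in corn oil or with corn oil only, so that control and exposed rats shared the vehicle and the handling. The exposed groups were set against control together, as the mean of the 3 dose effects, and one at a time. The libraries held from 12116064 to 18739874 counted reads. The median was 13111764 in control and 14961136 over the exposed groups, with 14488251 in D3, 14270763 in D6 and 17728108 in D12.

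DES is a synthetic estrogen that binds the nuclear estrogen receptors Esr1 and Esr2. The POA holds the cell bodies of the neurons that release gonadotropin-releasing hormone (GnRH), which drive the pituitary and the ovary, and kisspeptin neurons that carry the estrogen signal to them. It borders on the basal forebrain in front and at the sides, and on the mediobasal hypothalamus (MBH), with the arcuate nucleus and the mammillary bodies, behind. Small differences in dissection can therefore bring neurons of other nuclei into a POA library, and in bulk tissue fewer cells of a type and less RNA per cell cannot be told apart.

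Markers of neighbouring regions were read first, since they show where libraries stood apart. The library labelled control replicate 4 carried the markers of more posterior tissue. The summed level of 8 genes of mammillary neurons was 146 CPM, the count scaled by the total of counted reads of its library, in it and between 7.67 and 26.9 CPM in the other 19 libraries, and it held 1710 CPM of 9 genes of posterior and lateral hypothalamic neurons against 105 to 214 CPM elsewhere. Its 10 pituitary genes summed to 100 CPM, and no other POA library passed 8.96 CPM. In the 20 MBH libraries of the same rats the median of the mammillary sum was 132 CPM and that of the posterior and lateral sum was 1370 CPM, so by these 3 lists the library labelled control replicate 4 lay within the range of the MBH. Of 20 transcription factors and receptors of the POA it held 979 CPM, against 1280 to 1520 CPM in the other control libraries and 905 to 1090 CPM in MBH control. Its sum of preoptic neuropeptides, 835 CPM, lay within the 655 to 1180 CPM of the other control libraries, a range that also held MBH control (860 to 1120 CPM). Oxytocin (Oxt), made mainly in the supraoptic and paraventricular nuclei, stood at 8.33 CPM against 70.5 to 210 CPM in the other control libraries, Gnrh1 at 0.794 CPM against 3.47 to 7.86 CPM, and Esr1 at 13 CPM against 21.8 to 35.8 CPM. Values that this library decides are given without it as well. Control replicates 3 and 5 stood apart in another way, with 386 and 533 CPM of 8 genes of basal forebrain cholinergic neurons, a list chosen after the values were seen, while the other control libraries held 23.6 to 128 CPM and the exposed libraries 29.3 to 238 CPM.

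**Figure D1:**
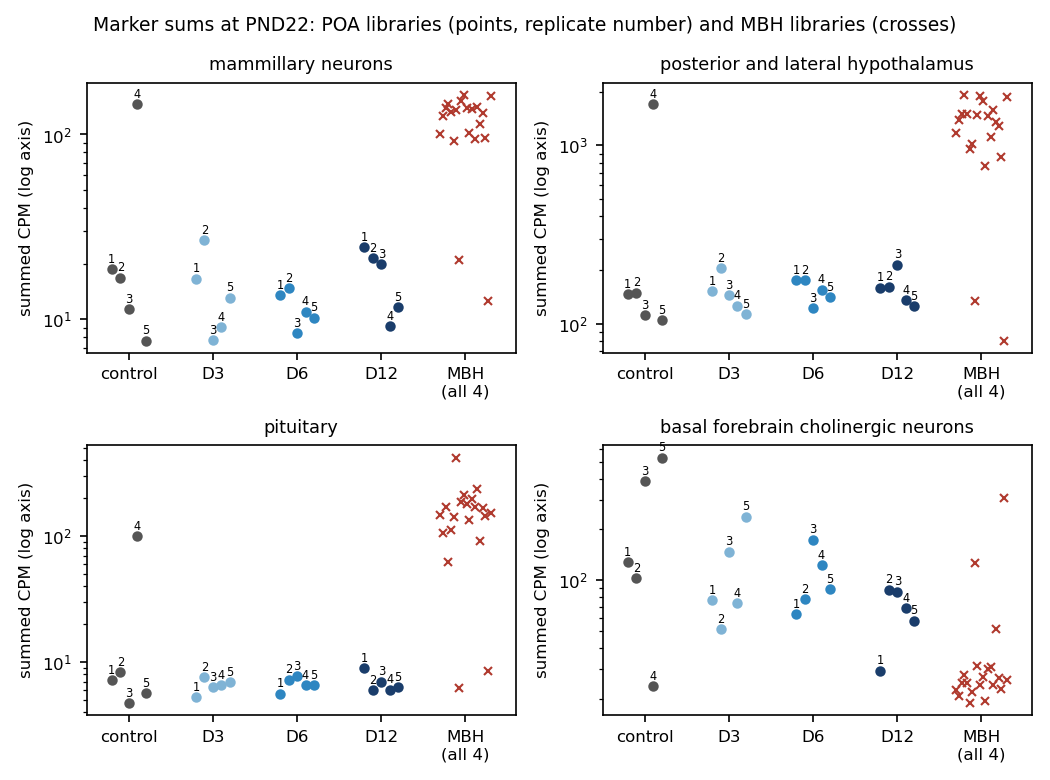
Summed CPM, on log axes, of marker genes of 4 neighbouring regions or cell types in the 20 POA libraries at PND22 (points, with the replicate number, by group) and in the 20 MBH libraries of control, D3, D6 and D12 at the same age (crosses). Control replicate 4 sits among the MBH libraries in the mammillary, posterior and pituitary panels, and control replicates 3 and 5 are the 2 highest POA libraries in the cholinergic panel.

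No gene was called in pooled DES against control at an adjusted p-value under 0.05 with edgeR's quasi-likelihood test, 0 of 14681 genes or 0%, and the lowest adjusted p-value was 0.13. At an unadjusted p-value under 0.05 there were 1441 genes (9.82%), 607 with higher (4.13%) and 834 with lower levels (5.68%) after exposure. With DESeq2 43 genes were called, 14 of them higher, and with limma voom 0. The expression profiles of exposed and control libraries were not separated either: over the 500 most variable genes the grouping took up 7.77% of the squared distance between libraries (pseudo-F 1.516, exact permutation test, p = 0.104). That p-value was 0.0204 without control replicate 1, and lay between 0.0704 and 0.181 when any other library was left out.

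Of the genes with the smallest p-values in the pooled comparison 9 are described, although edgeR called none of them. DESeq2 called 7 of the 9, with adjusted p-values between 0.00473 and 0.0104, and gave no p-value for Pomc and Hdc. Pomc, Hdc, Stxbp6, Tacr3 and Bean1 were called when all 7 groups of the POA were fitted together. Stxbp6, which encodes a protein that binds the vesicle fusion machinery, measured 18.1, 18.2, 24.3, 22.1 and 24.9 CPM in control replicates 1 to 5. The D3 libraries measured 16.1, 17.9, 17, 15.9 and 21.2 CPM, the D6 libraries 14.9, 19.2, 17, 15.7 and 16.2 CPM, and the D12 libraries 12.5, 15.2, 14.9, 12.7 and 15.1 CPM. Thus 13 of the 15 exposed libraries were below every control library, and D3 replicate 5 and D6 replicate 2 overlapped with control. The pooled log2 fold change was -0.46 ± 0.086 (SE; edgeR, adjusted p = 0.13), with -0.30 in D3, -0.39 in D6 and -0.67 in D12.

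Tacr3, the receptor of neurokinin B, a peptide that drives GnRH release, measured 10.9, 9.53, 15, 24.8 and 18.8 CPM in control and between 6.2 and 12 CPM in the exposed libraries. Its pooled log2 fold change was -0.82 ± 0.16 (adjusted p = 0.13), nearly the same at each dose (-0.80, -0.77 and -0.90), and -0.61 (adjusted p = 0.192) without the library labelled control replicate 4, which was the highest. The heavy neurofilament gene Nefh ranged from 124 to 254 CPM in control and from 85.2 to 161 CPM after exposure, with a log2 fold change of -0.57. Bean1, a partner of a ubiquitin ligase, Cacng7, a subunit that accompanies AMPA receptors, Bcl11b, a transcription factor of striatal and cortical neurons, and Nrip3 had pooled log2 fold changes of -0.52, -0.25, -1.01 and -0.30. These 7 genes with lower levels kept their direction without the library labelled control replicate 4, with values between -0.23 and -1.02. That was not so for the size of the other 2. Pomc, the precursor of melanocortins in the arcuate nucleus, measured 30 CPM in the library labelled control replicate 4 and at most 1.45 CPM in the 19 others, and its log2 fold change of -3.20 became -0.48 without it. Hdc, which makes histamine in posterior neurons, measured 98.9 CPM there and at most 4.69 CPM elsewhere, and its value went from -2.93 to -0.06. Without control replicates 3 and 5, which were the highest control libraries for Bcl11b and Nefh, the values were -0.55 for Bcl11b, -0.17 for Nrip3, -0.25 for Nefh and -0.30 for Stxbp6. Tacr3, Bean1 and Cacng7 were at -0.74, -0.62 and -0.21 without these 2 libraries, an alternative added after seeing the data.

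The doses were then compared with control one at a time. In D3 0 of 14178 genes were called (518 at an unadjusted p-value under 0.05, 3.65%, of which 1.77% higher and 1.88% lower, and 0 called with DESeq2 and 0 with limma voom), and in D6 0 of 14244 genes (553, 3.88%, of which 1.64% higher and 2.25% lower, and 1 called with DESeq2 and 0 with limma voom). In D12 29 of 14325 genes were called (0.202%), 8 higher (0.0558%) and 21 lower (0.147%). There were 2721 (19%) at an unadjusted p-value under 0.05, 1335 higher (9.32%) and 1386 lower (9.68%). The 29 genes had adjusted p-values between 0.0387 and 0.0489, close to the threshold. Leaving out the library labelled control replicate 4 gave 0 calls, with 2670 genes at an unadjusted p-value under 0.05, all 29 genes in the same direction and adjusted p-values from 0.0612 to 0.0648. DESeq2 called 786 genes with 28 of the 29 among them, and a fit with control and the 3 exposed groups together called 405 with all 29 among them.

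All 8 genes that rose in D12 are given here. Tardbp, an RNA-binding protein of the nucleus, measured 94.6, 76.8, 84.7, 93.2 and 88.7 CPM in control and 111, 138, 110, 128 and 121 CPM in D12. The D12 libraries were all above the control libraries, whereas D3 (85.3 to 94.7 CPM) and D6 (77.8 to 96 CPM) overlapped with control. The log2 fold change was 0.41 ± 0.072 in D12 (edgeR, adjusted p = 0.0489), and 0.016 in D3 and 0.024 in D6. Wdr5, a subunit of histone methyltransferase complexes, measured 33.3, 35.2, 33.5, 34.5 and 34.5 CPM in control and 41.7, 47, 41.6, 45.9 and 46.5 CPM in D12, a log2 fold change of 0.32. Phf13, a protein that binds methylated histone, measured 20.7 to 23.3 CPM in control and 28.2 to 31.4 CPM in D12, a log2 fold change of 0.36, and the 5 D3 libraries, at 24.5 to 27.2 CPM, were above control as well. Rcor1, a corepressor subunit, rose by a log2 fold change of 0.45 and Poldip3, which acts in the export of messenger RNA, by 0.26. The other genes that rose were Pnck, a calmodulin-dependent kinase, with 0.36, Tmx1, an oxidoreductase of the endoplasmic reticulum, with 0.30, and Anapc4, a subunit of the anaphase-promoting complex, with 0.27.

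**Figure D2:**
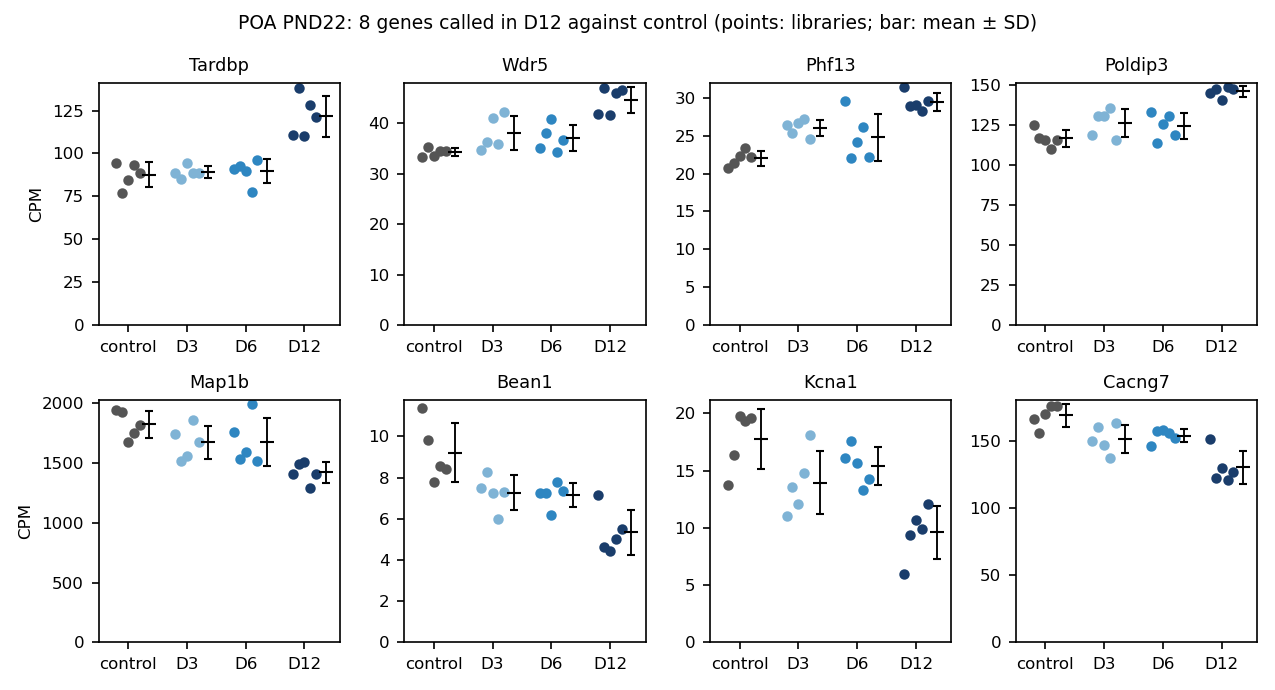
CPM of 8 genes called in D12 against control, in each POA library at PND22 (points, by group), with the mean and SD of the 5 libraries of a group (bars). The D12 libraries lie above all control libraries for Tardbp, Wdr5, Phf13 and Poldip3 and below them for Map1b, Bean1, Kcna1 and Cacng7, while D3 and D6 libraries overlap with control for all 8 genes but Phf13 in D3.

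Of the 21 genes that fell in D12, 12 are named by size. Map1b, a microtubule-associated protein of axons, measured 1940, 1930, 1680, 1750 and 1820 CPM in control and 1410, 1490, 1510, 1290 and 1410 CPM in D12, with no overlap and a log2 fold change of -0.42 ± 0.056 (edgeR, adjusted p = 0.0387). Its relative Map1a fell by 0.42 on the log2 scale as well. Kcna1, a voltage-gated potassium channel of axons, measured 13.7, 16.4, 19.8, 19.3 and 19.6 CPM in control and 5.95, 9.42, 10.7, 9.87 and 12.1 CPM in D12, the lowest in replicate 1, a log2 fold change of -0.94. Mn1, a transcriptional regulator, measured 11.9 to 16.8 CPM in control and 7.22 to 9.39 CPM in D12, with log2 fold changes of -0.40 in D3, -0.55 in D6 and -0.81 in D12. Bean1, Stxbp6 and Cacng7, met in the pooled comparison, fell by 0.84, 0.67 and 0.43 on the log2 scale.

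Among the other genes that fell, Tmem108 changed by -0.56, Plppr5 by -0.47, Lyrm7, an assembly factor of mitochondrial complex III, by -0.43, Bcar1, an adaptor at adhesion sites, by -0.40, and Dusp7, a phosphatase of mitogen-activated kinases, by -0.39 on the log2 scale. The genes Gm2a, Omg, Nrgn, Nacc2, Rab3a, Pitpna and Pfn1 were not among the 12 largest, were named after their values were seen and fell by 0.25 to 0.39 on the log2 scale, LOC100363268 by 1.51. Rab3a is a GTPase of synaptic vesicles and Nrgn a calmodulin-binding protein of dendrites. LOC103689961, an uncharacterised gene also named after its values were seen, was either high or near 0, with a log2 fold change of -5.67. It measured 41.3 to 49.6 CPM in 4 control libraries, 38.5 to 49.3 CPM in 4 D6 libraries and 49.6 CPM in 1 D3 library, and no more than 1.42 CPM in the 11 remaining libraries, control replicate 5 and all D12 libraries among them. The D12 and control libraries did not overlap in CPM for 27 of the 29 genes, against 848 of the 14325 genes tested (5.92%), and since the same libraries chose the 29 genes nothing is read from that count.

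For all 29 genes the effect was smaller in D3 and in D6 than in D12. The median size of the log2 fold change was 0.121 in D3, 0.135 in D6 and 0.399 in D12, and 29 genes in D3 and 26 in D6 lay on the same side of 0 as in D12. At an unadjusted p-value under 0.05 there were 10 of the 29 in D3 and 8 in D6. The 3 comparisons share the 5 control libraries, and the genes were chosen by the D12 effect, so these values are a description.

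**Figure D3:**
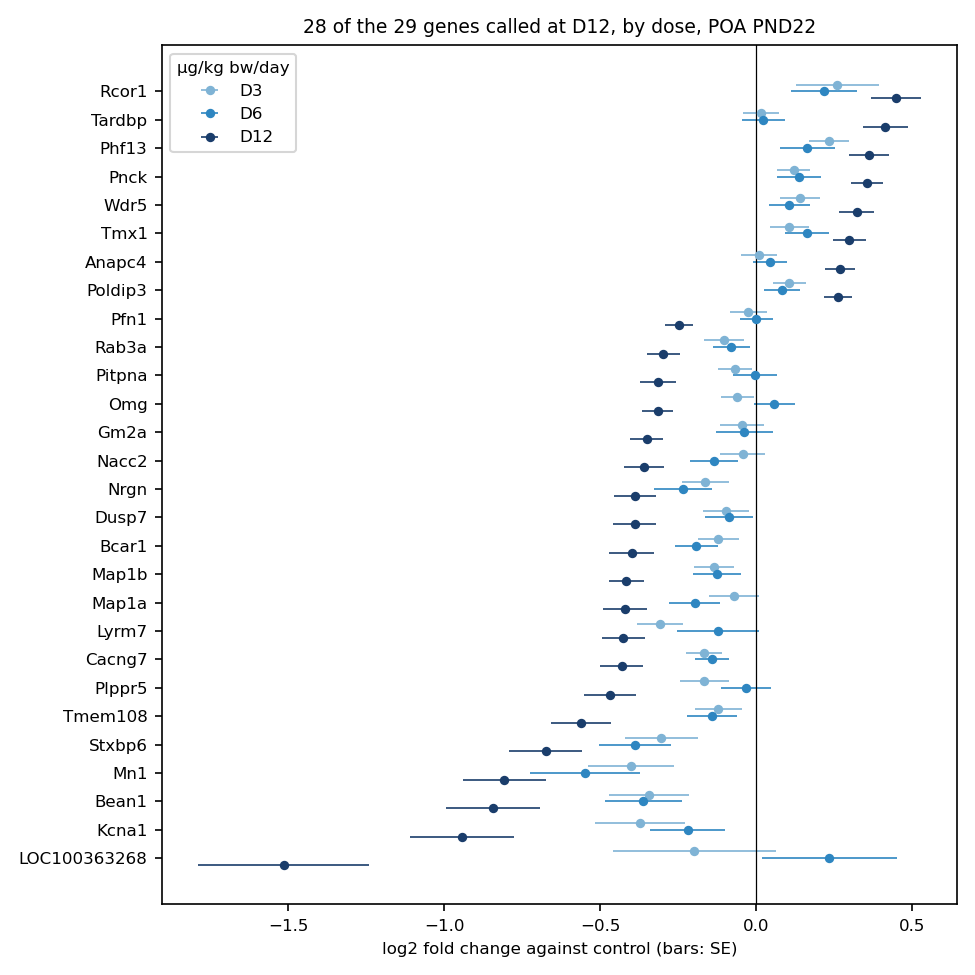
Log2 fold change against control (points, with SE) of 28 of the 29 genes called in D12, in D3, D6 and D12 at PND22 in the POA. LOC103689961 is left out because its value lies far outside the axis. The D12 points lie farther from 0 than those of D3 and D6 for every gene shown.

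Whether the doses differed from each other was tested over the 15 exposed libraries and control in 1 fit, with the hypothesis of equal D3, D6 and D12 levels. Of 14681 genes 5 were called (0.0341%) and 1885 (12.8%) were at an unadjusted p-value under 0.05. The 5 were Tardbp, Omg, LOC100363268 and AC117869.1, each with an adjusted p-value of 0.0111, and AABR07031491.2 with 0.0455. They are named here because there were 5, after their values were seen. Omg, a glycoprotein of myelin and neurons, measured 204, 215, 204, 188 and 203 CPM in D3, 229, 241, 220, 195 and 213 CPM in D6 and 183, 172, 169, 182 and 172 CPM in D12. In the same way LOC100363268 (0.217 to 0.468 CPM in D12) and AC117869.1 (0.162 to 0.35 CPM in D12) were lower in D12 than in every D3 and D6 library. AC117869.1 was too low to be tested in D12 against control. AABR07031491.2 measured 256 to 277 CPM in D12, 278 to 311 CPM in D3 and 298 to 332 CPM in D6. The count was 0 without D12 replicate 2, 4 or 5 (edgeR, 1331 to 1498 genes at an unadjusted p-value under 0.05), 161 without D12 replicate 1, 8 without control replicate 1, 9 without D12 replicate 3 and 277 with DESeq2.

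D12 replicate 1 stood apart from the other D12 libraries in 2 measures of the RNA. Transcripts encoded by the mitochondrial genome summed to 84500 CPM in it, within the range of control (70600 to 89400 CPM), but to 63200, 65500, 67800 and 61000 CPM in D12 replicates 2 to 5, below every control, D3 and D6 library. Cytosolic ribosomal protein genes showed the reverse within D12, with 3400 CPM in replicate 1 and 3680 to 3830 CPM in D12 replicates 2 to 5. They summed to 3090 to 3430 CPM in control and 3060 to 3390 CPM in D6. In D3 they summed to 3230 to 3710 CPM (median 3500), so high sums were not confined to D12. In D12 against control 12 of 13 mitochondrially encoded genes lay below 0, 11 of them at an unadjusted p-value under 0.05 (lower in 9.68% of all genes), with a median log2 fold change of -0.39, and 0 were called. Without D12 replicate 1, 255 of 14420 genes were called in D12 against control, among them all 29 genes above. Also among them were 10 of the 13 mitochondrially encoded genes and 6 of the 19 ribosomal protein genes tested. Leaving out control replicate 1 gave 145 calls, leaving out control replicate 3 or D12 replicate 3, 4 or 5 gave 0 (2229 to 2753 genes at an unadjusted p-value under 0.05), and leaving out control replicate 5 or D12 replicate 2 gave 1 each. The part of these RNA measures in the D12 calls was not tested.

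The 12 genes of the reproductive axis and neuropeptide systems chosen for description were not called with edgeR in the pooled comparison or at any dose. The estrogen receptor gene Esr1 measured 35.8, 31.3, 21.8, 13 and 24.4 CPM in control, 26.9 to 38.8 CPM in D3, 26.8 to 39.9 CPM in D6 and 28.3 to 38.2 CPM in D12. The groups overlapped, the lowest value was that of the library labelled control replicate 4, and the pooled log2 fold change of 0.37 ± 0.15 (edgeR, adjusted p = 0.416) was 0.21 without that library. Esr2 changed by 0.31 and the progesterone receptor Pgr by 0.12, with adjusted p-values of 0.674 and 0.694. Aromatase, Cyp19a1, which makes estradiol from testosterone, measured 2.6, 2.75, 2.37, 1.11 and 3.09 CPM in control and 3.36, 3.21, 3.41, 3.84 and 3.79 CPM in D12. All 5 D12 libraries were above control, yet the log2 fold change of 0.50 ± 0.22 in D12 had an adjusted p-value of 0.25, and the pooled value went from 0.42 to 0.24 without the library labelled control replicate 4.

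Gnrh1 measured 3.47, 4.12, 5.21, 0.794 and 7.86 CPM in control, 4.87 to 10.5 CPM in D3, 4.09 to 6.33 CPM in D6 and 4.06 to 9.44 CPM in D12. The groups overlapped, with a pooled log2 fold change of 0.54 ± 0.29 (adjusted p = 0.55) and of 0.28 without the library labelled control replicate 4. Kiss1, which encodes kisspeptin, was near the limit of detection, at 0.229 to 1.89 CPM in control and 0.635 to 2.1 CPM after exposure. Oxt and Avp, the neurohypophyseal hormones, ranged from 8.33 to 210 and from 17.8 to 99.6 CPM in control and from 78.9 to 264 and from 20.1 to 139 CPM after exposure. The pooled log2 fold changes of these 3 genes were 0.46, 0.26 and 0.15. Without the library labelled control replicate 4 they were 0.71, -0.043 and -0.030, and without control replicates 3 and 5 they were 0.017, 0.12 and -0.20. The sign thus turned for Oxt and Avp without the first of these libraries, and for Avp without the other two. Gnrh1 was at 1.18 without control replicates 3 and 5. Mkrn3, a brake on puberty, Igsf10, which acts in GnRH neuron migration, and the neuropeptides Gal and Penk had values of 0.013, -0.11, -0.012 and -0.10, each no larger than its SE.

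**Figure D4:**
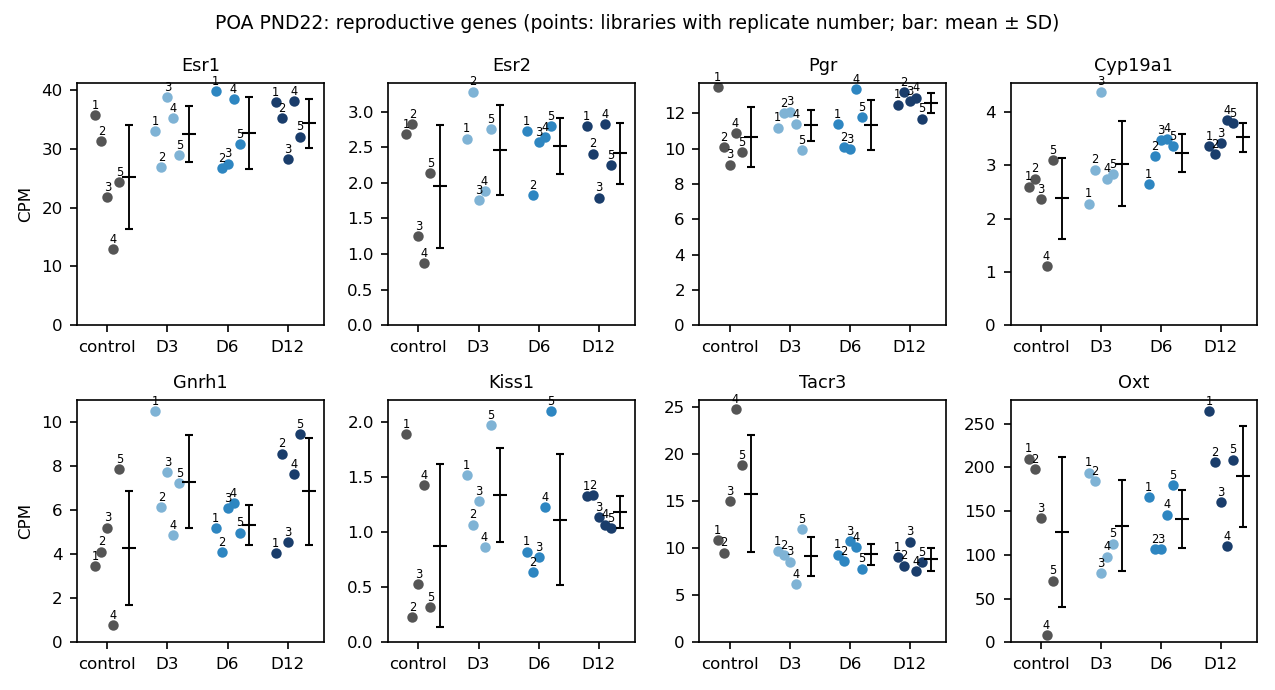
CPM of 8 genes of the reproductive axis and neuropeptide systems in each POA library at PND22 (points with replicate number, by group), with the mean and SD of 5 libraries (bars). Exposed and control libraries overlap in every panel, and control replicate 4 is the lowest library for Esr1, Esr2, Cyp19a1, Gnrh1 and Oxt and the highest for Tacr3.

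Lists of genes were described by the direction and the median of their members, beside the median of all genes tested, which was -0.0033 in the pooled comparison, where 48.8% of genes lay above 0. That share was 47.8% in D3, 49.3% in D6 and 50.2% in D12. Of the 35 tested genes of the GnRH network, 16 lay above 0 and the median was -0.018, with 1 gene higher and 5 lower at an unadjusted p-value under 0.05 and 0 called with edgeR. Without the library labelled control replicate 4, 21 of the 35 lay above 0 and the median was 0.041. Besides Tacr3, the lower ones with the smallest p-values were Nkx2-1, a transcription factor of the ventral hypothalamus, at -0.74, and the axon guidance genes Sema7a at -0.35 and Sema3a at -0.36. The library labelled control replicate 4 was the highest for Nkx2-1, at 25.8 CPM against 6.44 to 15 CPM in the other libraries, and the value was -0.43 without it. Of 65 puberty genes listed by the study 29 lay above 0 (median -0.0096), and 34 without that library (median 0.0095). Of 19 estrogen-responsive hypothalamic genes 8 did (median -0.025), and 10 without it (median 0.0535). Receptors of estrogens and progesterone, with 8 tested members, were split evenly, and Esrrg, an orphan relative, at -0.30, and the membrane receptor Gper1, at 0.31, were the members with unadjusted p-values under 0.05 besides Esr1. Without the library labelled control replicate 4 the unadjusted p-values of Esr1 and Gper1 were 0.106 and 0.092, and 0 receptors were higher and 2 lower at an unadjusted p-value under 0.05. None of the genes of these lists was called with edgeR in the pooled comparison of 4 groups or at a dose fitted with control alone. With all 7 groups of the POA in the fit, edgeR called Tacr3 in the pooled comparison (adjusted p = 0.0206). With control and the 3 exposed groups in 1 fit, it called Tacr3, Nkx2-1 and Sema7a in D12 (adjusted p = 0.0251, 0.048 and 0.0398). DESeq2 called Tacr3 (adjusted p = 0.00473) and Nkx2-1 (adjusted p = 0.0317) in the pooled comparison, and Tacr3, Nkx2-1 and Sema7a in D12 (adjusted p = 0.00549, 0.0256 and 0.00323).

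Several lists lay wholly or nearly wholly below 0 in the pooled comparison. Among them were the lists of cholesterol synthesis, immediate early genes, myelin, oligodendrocyte precursors (9 of 9 genes, median -0.133), mitochondrially encoded genes (13 of 13, median -0.135), meninges (7 of 7), mammillary neurons (3 of 3), cholinergic genes (8 of 8) and neurofilament and microtubule-associated proteins (15 of 16, median -0.072). The last 2 of these lists were added after the values were seen. Of the neurofilament and microtubule-associated genes 2 were called in D12, Map1a and Map1b, and without control replicates 3 and 5 12 of the 16 lay below 0 in the pooled comparison. All 21 tested genes of cholesterol synthesis and uptake lay below 0 in the pooled comparison and again in D3, D6 and D12, with medians of -0.16, -0.14, -0.18 and -0.20, and 9 were lower at an unadjusted p-value under 0.05 in the pooled comparison (5.68% of all genes) and 0 were called. The summed level of this list was 2510 to 3460 CPM in control and 2010 to 3070 CPM after exposure, so that the groups overlapped. Squalene epoxidase, Sqle, measured 130, 158, 146, 140 and 137 CPM in control and 104 to 139 CPM after exposure, with 10 of the 15 exposed libraries below all control libraries and a log2 fold change of -0.21 ± 0.056 (edgeR, adjusted p = 0.22). Sc5d, Idi1 and Mvd, enzymes of the same pathway, had values of -0.18, -0.33 and -0.25. In D12 edgeR called none of the list when fitted with control alone. With control and the 3 exposed groups in 1 fit it called Sc5d and Sqle (adjusted p = 0.0141 and 0.048). DESeq2 called Sc5d and Idi1 in D12 (adjusted p = 0.000263 and 0.0226). Without the library labelled control replicate 4 the list's pooled median was -0.20, and without D12 replicate 1 the median in D12 was -0.098, with 19 of 21 members below 0. Without control replicates 3 and 5 the pooled median was -0.10, with 21 of 21 members below 0 and 2 lower at an unadjusted p-value under 0.05. Myelin is rich in cholesterol, and the 15 genes of oligodendrocytes and myelin also all lay below 0 at each dose, with a pooled median of -0.25. Their summed level varied widely within groups, from 14500 to 30100 CPM in control and from 7470 CPM, in D12 replicate 1, to 24400 CPM after exposure, so that the groups overlapped, and 1 gene, Ermn, at -0.39, had an unadjusted p-value under 0.05.

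Immediate early genes, which neurons switch on within minutes of activity, lay below 0 for 20 of 21 tested members in the pooled comparison, with a median of -0.32, and 7 were lower at an unadjusted p-value under 0.05 with 0 called. Medians were -0.12 in D3, -0.27 in D6 and -0.36 in D12. Arc, which acts at active synapses, measured 11.9, 10.1, 16.4, 12.9 and 15.1 CPM in control, 9.77 to 15.2 CPM in D3, 9.18 to 10.3 CPM in D6 and 7.8 to 11.1 CPM in D12. Its pooled log2 fold change was -0.40 ± 0.11 (edgeR, adjusted p = 0.22), and those of Nr4a1 and Fosb were -0.65 and -0.71. In D12 edgeR called Arc with control and the 3 exposed groups in 1 fit (adjusted p = 0.0338), though not with control alone. DESeq2 called it in D12 as well (adjusted p = 0.00792). Nr4a1 was high in control replicates 3 and 5 (23.6 and 24.5 CPM) and D3 replicate 5 (22.3 CPM), and between 7.35 and 11.8 CPM in the other 17 libraries. Control replicates 3 and 5 were thus high for cholinergic genes and for Nr4a1 alike. Without these 2 libraries 10 of the 21 immediate early genes lay above 0, the median was -0.00091, and Nr4a1, Fosb and Arc were at 0.043, -0.0099 and -0.20. Of 21 targets of glucocorticoid and thyroid hormones 4 lay above 0 (median -0.14), and 6 were lower at an unadjusted p-value under 0.05. Klf9, a transcription factor induced by both hormones, measured 43.9 to 51.3 CPM in control and 29.9 to 46.3 CPM after exposure, with 12 of 15 libraries below control and a log2 fold change of -0.33 ± 0.086 (adjusted p = 0.22). Hr, Nr3c2 and Sgk1 had values of -0.28, -0.26 and -0.53. In D12 edgeR called none of these genes when fitted with control alone. With control and the 3 exposed groups in 1 fit it called Klf9 and Nr3c2 (adjusted p = 0.0265 and 0.0481). DESeq2 called Klf9, Nr3c2 and Hr in D12 (adjusted p = 0.000373, 0.00492 and 0.0491). Without control replicates 3 and 5, 10 of the 21 targets lay above 0 with a median of -0.011, Sgk1 was at -0.068 and Klf9 at -0.28.

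**Figure D5:**
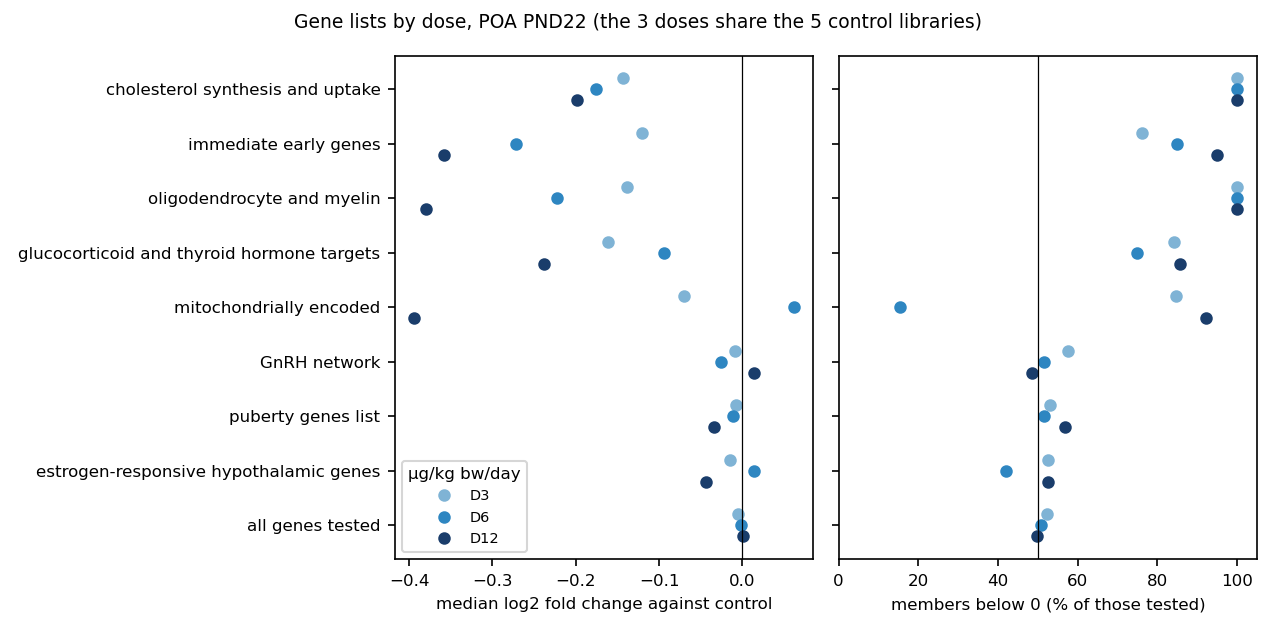
Median log2 fold change against control (left) and share of tested members below 0 (right) for 8 gene lists and for all genes tested, in D3, D6 and D12 at PND22 in the POA. Cholesterol and myelin genes lie wholly below 0 at each dose, mitochondrially encoded genes do so for 12 of 13 members in D12 and for 2 of 13 in D6, and the GnRH, puberty and estrogen-responsive lists lie near the median of all genes. The 3 doses share their control libraries.

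Cholinergic genes of the basal forebrain, chosen after their values were seen, lay below 0 for all 8 members, with a pooled median of -1.37. Chat, which makes acetylcholine, measured 11.3, 8.47, 44.8, 1.67 and 65.8 CPM in control, 1.19 to 24.9 CPM in D3, 4.54 to 16.3 CPM in D6 and 0.63 to 7.49 CPM in D12. The 2 highest libraries were control replicates 3 and 5, and the library labelled control replicate 4 was among the lowest. The pooled log2 fold change of Chat was -1.88 ± 0.53 (edgeR, adjusted p = 0.223), and -2.19 without the library labelled control replicate 4 (adjusted p = 0.182), and the transporters Slc5a7 and Slc18a3 had values of -1.38 and -1.69. Without control replicates 3 and 5 together, an alternative added after seeing the data, Chat was at 0.0365, Slc5a7 at 0.028 and Slc18a3 at -0.22, 6 of the 8 cholinergic genes lay above 0 and their median was 0.155. In that fit 5 genes were called in pooled DES and 1 in D12. Markers of other cells gave smaller values, with pooled medians of -0.062 over 11 astrocyte genes, -0.0093 over 10 microglial genes and 0.013 over 9 genes of vessels. The 7 tested genes of meninges had a median of -0.28, and of 0.12 without the library labelled control replicate 4, which held 403 CPM of them against 114 to 249 CPM in the other control libraries. Mammillary genes, of which 3 passed the filter, went from a median of -1.29 to 0.11 without that library.

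The same contrast was made in the POA at later ages. At PND42 0 of 14845 genes were called in pooled DES against control with edgeR (1201 at an unadjusted p-value under 0.05, 8.09%; 44 with DESeq2), and at PND90 0 of 14997 genes (153, 1.02%, 0.567% lower; 1 with DESeq2). At PND42 49.6% and at PND90 51.8% of all genes lay above 0. Of the 29 genes called in D12 at PND22, 7 lay on the same side of 0 at PND42 and 24 at PND90, with 6 and 1 at an unadjusted p-value under 0.05. Mn1 was at 0.50 and Nrgn at 0.64 on the log2 scale at PND42, against -0.59 and -0.26 in pooled DES at PND22. A test of equal pooled effects at the 3 ages called 1 of 15422 genes (0.00648%), AABR07019383.1, and 0 without the library labelled control replicate 4 (edgeR, 705 at an unadjusted p-value under 0.05; 5 with DESeq2 over all libraries).

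In the MBH of the same rats at PND22 the pooled comparison called 3225 of 15233 genes (21.2%). The summed markers of suprachiasmatic neurons were 58.2 to 102 CPM in MBH control and 161 to 350 CPM in MBH exposed libraries. Those of cortical and hippocampal neurons were 30.4 to 40.4 and 40.7 to 113 CPM, while other region sums, such as the mammillary sum, overlapped. The part of regional content in the MBH calls was not tested. The effect differed between the POA and the MBH for 2187 of 15450 genes (14.2%), 1043 of them with the higher value in the POA (6.75%) and 1144 with the lower (7.4%). Region markers of MBH D3 replicate 3 and MBH D12 replicate 4 (mammillary sums of 20.8 and 12.6 CPM, where the other MBH libraries held 92 to 163 CPM) went against their labels, and without these 2 libraries and the library labelled POA control replicate 4 the count was 2135, an alternative added after seeing the data. Of the genes described here, 38 of 79 had an adjusted p-value under 0.05 in this test of the difference, and 32 of the 38 without the 3 libraries. Many of the 79 were named for their POA values, which enter this test, so nothing is read from that count. Tardbp was at 0.15 in the POA and fell by 0.42 in the MBH (difference 0.58, adjusted p = 0.000229), Nefh was at -0.57 in the POA and rose by 0.69 in the MBH (difference -1.18, adjusted p = 0.000979), and Ermn was at -0.39 and rose by 0.96 (difference -1.36, adjusted p = 0.00183). Oxt was at 0.26 in the POA and rose by 3.86 on the log2 scale in the MBH, a difference of -3.23 (edgeR, adjusted p = 0.000556).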

How the data were processed

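RNA was extracted from the POA and MBH of female Sprague-Dawley rats and made into stranded messenger RNA libraries, sequenced as read pairs. The deposited values were raw counts, whole numbers of reads per Ensembl gene with no normalization, which the authors made with STAR alignment to Rnor 6.0 and featureCounts. Per the labels, bcl2fastq 2.20 was used before alignment. Whether counting used the strand is not given in the sources used here, so genes with near-identical copies, overlapping genes and antisense genes are uncertain. The groups, doses, ages and replicate numbers came from the labels, all 20 libraries were kept, and the later ages and the MBH were used for the comparisons with age and tissue alone.

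The tests were those of edgeR 4.0.16 (R 4.3.3), with TMM scaling, filterByExpr with a minimum count of 10, two-sided quasi-likelihood tests, Benjamini-Hochberg adjustment over all genes tested and a call at an adjusted p-value under 0.05. Pooled DES is the mean of the D3, D6 and D12 coefficients minus control in a fit of these 4 groups. Each dose was fitted with control alone, the tissue interaction with the rat number as a block. SE was derived as the size of the log2 fold change over the root of its F statistic. CPM was taken before TMM scaling. In the fit of the 4 groups the TMM factors were 0.9775 to 0.9982 in control and 0.9768 to 1.006 in D3. They were 0.9804 to 1 in D6 and 1.014 to 1.04 in D12. Separation was tested on DESeq2 1.42.0 variance-stabilized values of 500 genes over all 15504 choices of 5 of 20 libraries. The steps were tested on simulated data. DESeq2, limma voom (limma 3.58.1), other scaling, no filter, other fits and leaving out each library were alternatives. Counts below 3 in a library cannot be told from 0, which covers counting error only.

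The libraries, gene lists and tests were chosen with earlier results of these data known. Genes were named by rule: those called that have a gene symbol and reach 1 in mean log2 CPM, the 12 largest per direction and comparison, otherwise the 10 smallest p-values, with 12 reproductive genes, up to 4 genes per list and markers. The other genes were named after their values were seen. A few genes that these rules name are not reported here. Replicate numbers were not used as pairs in the main fits: the deviations of same-numbered libraries had a correlation over 0.1 in 7 of 30 pairs (median 0.0274). Those of the POA and MBH libraries of the same rat at PND22 did in 1 of 20 pairs (median -0.0107). Libraries with different numbers were not correlated for reference, so whether replicate numbers pair the samples was not tested. No libraries held identical values. Each library is labelled as another rat, and whether rats shared a litter is not given, so p-values measure the spread between these rats.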

Additional observations from a re-analysis of the deposited data

Results flagged for a closer look

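The library flagged most often was control replicate 4. In Dixon's test at 5 libraries (critical value 0.71), run on 356 groups of 5, 35 gave a library far from the other 4, 12 of them at control replicate 4 and 3 at D12 replicate 1. Chance gives about 1 in 20 only for independent groups chosen without their values. These genes and lists were partly chosen by their values and share members, so the count is a description. In control replicate 4 the highest values were Pomc at 30 CPM, Hdc at 98.9, Hcrt at 34.5, Pmch at 1400, Cartpt at 93.7, Lmx1a at 15.2, Foxb1 at 11, Agrp at 12.1 and Nrgn at 110 CPM. Its sums were 146 CPM for mammillary, 1710 CPM for posterior and lateral and 100 CPM for pituitary genes. D12 replicate 1 was the highest of its group for mitochondrially encoded genes, at 84500 CPM, for Rab3a at 551 CPM and for Pitpna at 236 CPM.

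In D3 replicate 5 Bcl11b stood at 7.47 CPM, Sema7a at 53, Nr4a1 at 22.3, Sgk1 at 68.5 and the sum of immediate early genes at 416 CPM, each the highest of its group. Other highest libraries were D3 replicate 2 for Lyrm7 (26.2 CPM), LOC103689961 (49.6 CPM) and Pmch (82.4 CPM), D3 replicate 3 for Lmx1a (1.33 CPM) and D3 replicate 4 for Map1a (1470 CPM). D6 replicate 2 was highest for Gm2a (120 CPM), Esrrg (41.3 CPM), Sc5d (285 CPM) and Pmch (55.5 CPM) and lowest for Esr2 (1.83 CPM). D6 replicate 3 was highest for Agrp (1.79 CPM) and D12 replicate 3 for Pmch (90.4 CPM). Control replicate 5 and D6 replicate 4 were the lowest for LOC103689961 (1.42 and 0.676 CPM), and control replicate 1 for Nacc2 (81.6 CPM).

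The levels at the 3 doses differed for Tardbp, Omg, LOC100363268 and AC117869.1 (edgeR, adjusted p = 0.0111 each) and AABR07031491.2 (adjusted p = 0.0455). The pooled effects at the 3 ages differed for AABR07019383.1 (edgeR, adjusted p = 0.0259), and without control replicate 4 of PND22 the test called 0 genes.

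The pooled effect differed between the POA and the MBH (adjusted p under 0.05, edgeR) for 38 of the 79 genes described, and values here are the POA minus the MBH effect on the log2 scale. Many of these genes were named for their POA values, which enter the test, so the count is a description. Some region markers also differed between the control and exposed MBH libraries. The POA effect was the higher for Rcor1 at 0.8158, Tardbp at 0.5809, Pnck at 0.5548, Wdr5 at 0.4795, Tmx1 at 0.6287, Poldip3 at 0.2336, Esr1 at 1.19, Mkrn3 at 0.9643, Igsf10 at 0.8908 and Gper1 at 0.7648. Among cytoskeletal, synaptic and other neuronal genes it was the lower for Cacng7 at -0.4509, Bean1 at -0.7428, Nrip3 at -0.8438, Nefh at -1.183, Mn1 at -0.7007, Map1a at -0.576, Rab3a at -0.3068, Pitpna at -0.4195, Omg at -0.4503, Nacc2 at -0.3552 and Sema7a at -1.4. The others with a lower effect in the POA were Lyrm7 at -0.531, Dusp7 at -0.2852, Gm2a at -0.457, AC117869.1 at -1.84, Oxt at -3.233, Avp at -1.901 and Esrrg at -0.8309, the cholesterol genes Sc5d at -0.3446 and Mvd at -0.6525, the early genes Arc at -0.8879, Nr4a2 at -0.7689 and Nr4a1 at -1.356, the myelin genes Ermn at -1.359, Mbp at -1.068 and Fa2h at -0.8283, and the hormone targets Klf9 at -0.6062 and Sgk1 at -1.603. Without the 3 libraries whose region markers went against their labels, 38 of these 38 genes had the same sign and 32 an adjusted p-value under 0.05.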

How the results depend on the processing

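In pooled DES 0 genes were called with edgeR, and 14 without the filter on low counts, 43 with DESeq2, 12 with all 7 groups in the fit, 5 without control replicates 3 and 5 and 0 to 14 when 1 library was left out. D12 gave 29 calls, and 16 without the filter, 786 with DESeq2, 405 with 3 exposed groups in 1 fit, 547 with limma voom, 1 without control replicates 3 and 5, and 0 (without control replicate 3 or 4 or D12 replicate 3, 4 or 5) to 255 (without D12 replicate 1) when 1 library was left out. Replicate numbers were not used as pairs in the main fits, and the replicate block gave 47 calls in D12, 16 of the 29 among them, 1 at PND90 and 0 for the interaction with age. Differences among the doses gave 5 calls, and 3 without the filter, 277 with DESeq2 and 0 to 161 with 1 library left out. D6 gave 1 with DESeq2, PND42 gave 44 with DESeq2 and 0 to 3 with 1 library left out, PND90 gave 1 with DESeq2, and the interaction with age gave 5 with DESeq2 and 0 to 3. With 1 library left out the interaction with tissue gave 1106 (without control replicate 3) to 2829 calls (without D6 replicate 1), and the pseudo-F of separation was 1.333 to 2.085. That interaction gave 2873 calls with DESeq2 and 2707 without the block of rat numbers. Of 51 genes followed in pooled DES 40 kept their sign under every alternative, and of the 29 called in D12 all did while each lost its call under at least 1. The cause of these differences was not tested. With 5 libraries per group and 3 counts as the floor, low genes such as Kiss1 and AC117869.1 are the least precise.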
